A study of Mus musculus with 2 samples.

Results

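The 41 genes described here act at the start of DNA replication or are switched on at the passage from G1 into S phase (G1/S and replication genes). They were chosen by name for their known function, and all 41 were found among the 27998 genes measured. Single-cell RNA sequencing (10x Genomics) was done on mouse cerebral cortex at postnatal day 0, with 1 library from WT mice and 1 from STINGf/f;Nestin-Cre mice (cKO), both of the C57BL/6 strain. STING, the product of Tmem173, is an adaptor of the cytosolic DNA sensing pathway, and Cre under the Nestin promoter deletes the floxed allele in neural progenitors and the cells that descend from them. The labels give the control as WT, whereas the study's text also calls the control of this experiment STINGfl/fl, so whether the control cells carried floxed alleles is not settled by the sources used here. How many pups went into each library is not given.

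Replication is prepared in G1, when the origin recognition complex, Cdc6 and Cdt1 load the ring-shaped MCM helicase onto DNA. Cyclin-dependent kinases release E2F transcription factors from the retinoblastoma protein, E2F raises the transcription of the replication genes, and Cdc45 and the GINS complex then turn the MCM ring into a working helicase. In the newborn cortex the dividing cells of the neural lineages are radial glia, Eomes+ intermediate progenitors, Dlx+ progenitors of interneurons and oligodendrocyte progenitor cells (OPCs), while neurons have left the cycle for good.

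After filtering, 6400 WT cells and 5784 cKO cells remained, with a median of 6476 and 7460.5 UMIs (unique molecular identifiers, 1 per captured RNA molecule). Levels are summed UMIs of a gene in a group of cells per 1000000 UMIs of that group (CPM), and intervals are 95% intervals of counting error alone. With 1 library per group there was no replicate, no test could be run, and a difference between genotypes cannot be told apart from a difference between these libraries. Tmem173 gave 107 UMIs in WT and 15 in cKO (2.02 and 0.287 CPM), and which exons the floxed allele loses is not given in the sources used here. The libraries also differed in sex-linked RNA, with 10 against 67737 UMIs of Xist and 9254 against 6 UMIs of 4 Y-linked genes, so sex and genotype cannot be told apart. Neurod6, a transcription factor of excitatory neurons of the cortex, stood at 383 CPM in WT and 324 CPM in cKO over all kept cells.

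All 41 genes were placed in GENCODE M21 (GRCm38), on 17 chromosomes, and Pola1 is the X-linked member. Genes on the opposite strand overlap 8 of them (Mcm7, Gins2, Rfc2, Rfc4, Ccne2, Ubr7, Cdc45 and E2f8). Pcna shares 99.2% of 781 bases with its processed pseudogene Pcna-ps2, and Wdr76 shares 98.8% of 503 bases with Mfap1a. Reads of these pairs could be left out or misassigned in counting, which was not tested. Over all barcodes Pcna-ps2 held 22 UMIs in WT and 33 in cKO, and Mfap1a held 2460 and 2204. Promoter sequences (RefSeq, GRCm38.p6) were matched for 31 members. The 250 bases upstream of each RefSeq start were searched on both strands for TTTCCCGC, TTTGGCGC and TTTCGCGC, letters that E2F factors are known to bind, with overlapping matches joined and counted once. Such a match stood in 9 of the 31 members (29.0%), in 1.78% of all 27025 genes of the promoter table and in 1 of 24 mitotic genes (4.17%). The 9 were Mcm5, Mcm6, Mcm7, Cdca7, Dtl, Uhrf1, Hells, Cdc6 and Pola1. In Mcm7, Uhrf1, Hells and Cdc6 the RefSeq start used lies downstream of the GENCODE start, and the match falls inside the GENCODE gene. Windows at another RefSeq start of Mcm7 and of Uhrf1 held 0 matches. A match is a run of letters and not a measured binding site.

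The windows of Mcm5 and Mcm6, which encode subunits of the helicase ring, and of Pola1, the member with the lowest ratio of cKO over WT in cycling cells, are shown with their matches, and that of Rad51ap1, the member with the highest ratio, has none. They lie at chr8:75109259-75109508 (plus strand), chr1:128359706-128359955 (minus strand), chrX:93632156-93632405 (minus strand) and chr6:126939588-126939837 (minus strand), are written 5′ to 3′ along the gene and end at the base before the RefSeq start. That start lies 60 bases upstream of the GENCODE start in Mcm5 and 41 bases upstream in Mcm6, and is the same base in Pola1 and Rad51ap1. Capitals mark the E2F letters on either strand, overlapping matches included.
Mcm5: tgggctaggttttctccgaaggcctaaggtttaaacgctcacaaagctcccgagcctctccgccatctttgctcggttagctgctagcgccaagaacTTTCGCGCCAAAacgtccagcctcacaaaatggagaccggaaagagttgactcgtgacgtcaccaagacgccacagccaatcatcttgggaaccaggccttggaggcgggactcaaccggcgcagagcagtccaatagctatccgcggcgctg
Mcm6: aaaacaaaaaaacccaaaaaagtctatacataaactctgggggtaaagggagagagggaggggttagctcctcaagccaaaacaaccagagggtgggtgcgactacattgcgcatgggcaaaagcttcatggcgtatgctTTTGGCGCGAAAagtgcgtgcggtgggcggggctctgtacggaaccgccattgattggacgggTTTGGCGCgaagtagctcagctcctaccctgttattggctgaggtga
Pola1: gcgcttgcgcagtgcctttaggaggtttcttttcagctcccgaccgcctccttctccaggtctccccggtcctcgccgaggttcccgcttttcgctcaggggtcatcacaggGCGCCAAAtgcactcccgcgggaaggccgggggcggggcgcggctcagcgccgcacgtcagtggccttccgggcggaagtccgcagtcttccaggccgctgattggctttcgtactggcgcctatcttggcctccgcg
Rad51ap1: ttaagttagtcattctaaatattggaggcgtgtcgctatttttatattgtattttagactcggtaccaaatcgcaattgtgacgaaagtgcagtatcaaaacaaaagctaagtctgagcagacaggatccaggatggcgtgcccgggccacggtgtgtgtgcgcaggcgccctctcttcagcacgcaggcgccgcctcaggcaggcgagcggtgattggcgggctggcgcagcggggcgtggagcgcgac
Mcm6 held the motif 2 times, 110 and 47 bases upstream of its RefSeq start. The single match began 153 bases upstream in Mcm5 and 138 in Pola1. Of the members at least 2-fold lower in cycling cells of cKO, Pola1 and Hells held a match, and Cdc45, Tyms and Prim1 held 0. Cdc6 (log2 ratio -0.02), Cdca7 (-0.16) and Dtl (-0.23) held 1 match each.

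Cells were called cycling when they held at least 3 UMIs from at least 2 of 17 mitotic genes such as Mki67, Top2a and Cdk1, none of which is a member, and noncycling when they held 0 UMIs of those and of 9 late mitotic genes. This gave 655 cycling cells in WT and 378 in cKO, among them 39 and 13 endothelial cells and 19 and 10 microglia. Cells were assigned to a lineage by UMIs of its markers. The 41 members together were high in cycling cells of 4 progenitor lineages. In cycling radial glia/astrocyte cells they summed to 5089.6 CPM (4996 to 5184) in WT and 4425 CPM (4327 to 4524) in cKO. Cycling Dlx/GABAergic cells gave 6312 CPM (6183 to 6444) and 4874 CPM (4748 to 5001), and cycling Eomes cells gave 6131 CPM (5885 to 6384) and 4959 CPM (4768 to 5154). Cycling OPCs gave 4681 CPM (4535 to 4829.7) and 4551 CPM (4326 to 4783), the lowest of the 4 progenitor lineages in WT. Noncycling cells of the same 4 lineages lay far lower, between 694 CPM (cKO OPCs) and 989.7 CPM (WT radial glia/astrocyte cells). Noncycling glutamatergic neurons held 703 CPM (690.0 to 716) in WT and 647 CPM (635 to 658) in cKO.

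**Figure D1:**
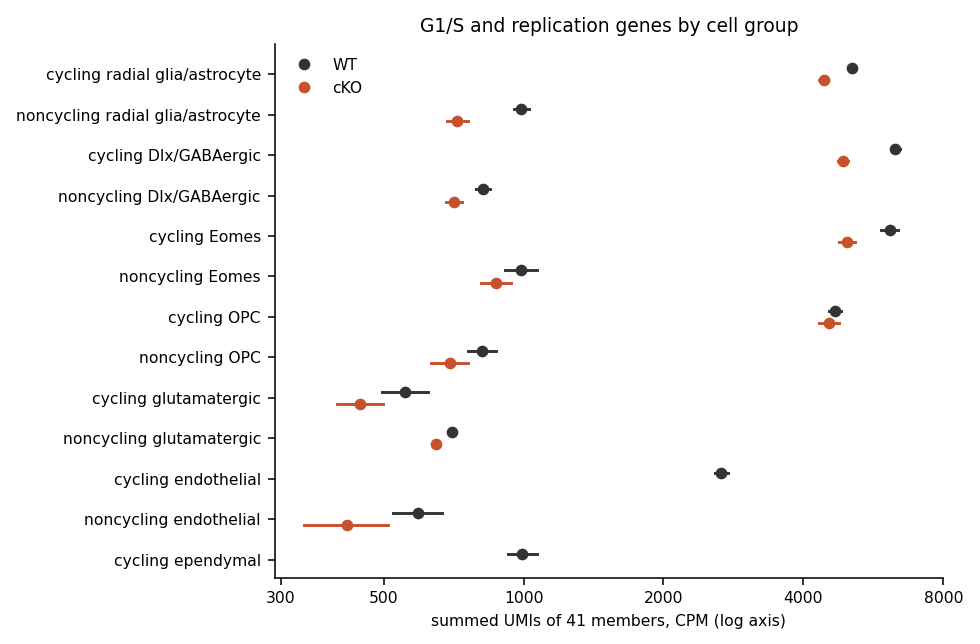
Summed level of the 41 members in CPM (log axis) by cell group, for WT and cKO, with points at the value and bars for the 95% counting interval; groups of fewer than 20 cells in a library are not drawn. Cycling progenitors of the 4 neural lineages lie between 4425 and 6312 CPM, while the cycling glutamatergic and the WT ependymal group lie near noncycling cells.

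Mitotic UMIs did not always come with replication RNA. The 41 cycling ependymal cells of WT held 1607 CPM of the mitotic genes but 995 CPM (926 to 1067) of the members. For each mitotic UMI these cells held 0.619 member UMIs, against 0.933 in cycling radial glia/astrocyte cells of the same library. Mcm2 had 7 UMIs, Ung 2 and Cdc6 0 in the ependymal cells, while Rfc2 had 83, Slbp 65 and Nasp 61. A median of 9 members was detected per ependymal cell. A low ratio was not particular to them, since 10 cycling microglia of cKO held 0.66 member UMIs for each mitotic UMI. The 30 WT and 29 cKO glutamatergic cells that passed as cycling held a median of 3 and 4 mitotic UMIs, just at the limit, and their members (556 and 445 CPM) were below those of noncycling glutamatergic neurons. In cycling radial glia/astrocyte cells a median of 23 of the 41 members was detected per cell in WT and 19.5 in cKO. The range over single WT cells of that group was 1 to 38 members.

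Set against noncycling glutamatergic neurons, 40 of the 41 members were at least 2-fold higher in cycling cells in both libraries, beside 25.3% of all 14732 genes tested, and 0 at least 2-fold lower, beside 9.96%. The median log2 ratio of the members was 3.68 in WT and 3.17 in cKO, and that of all genes 0.219 and 0.318. The exception was Pold3, an accessory subunit of DNA polymerase delta (0.85 in WT and 0.72 in cKO). Within radial glia/astrocyte cells 40 of 41 members were at least 2-fold higher in cycling than in noncycling cells (5.81% of all genes), within Dlx/GABAergic cells 38 of 41 (8.38%) and within OPCs 39 of the 40 tested (5.33%). No member was at least 2-fold lower in cycling cells within radial glia/astrocyte cells (7.05% of all genes), Dlx/GABAergic cells (13.8%) or OPCs (2.99%).

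The members differed widely in how far they separated cycling cells from neurons. Clspn, which carries the checkpoint signal at stalled forks, had log2 ratios of 8.17 in WT and 7.84 in cKO. Gmnn, whose product geminin blocks a new round of MCM loading, had 7.0 in WT and 6.51 in cKO, and Uhrf1, which guides DNA methylation to newly made DNA, had 6.99 in WT and 7.32 in cKO. For Cdc6, the MCM loader, no UMI was counted in 1871 WT neurons, so its level in cycling cells was at least 94.9-fold higher (3 UMIs taken as the limit over the group). In these 4 genes neurons were close to empty. The histone chaperone Nasp stood at the other end with 1.33 in WT and 1.10 in cKO, and carried 25.3% of all member UMIs in WT neurons and 23.3% in cKO neurons. Rfc2, a subunit of the clamp loader, had 1.15 in WT and 1.47 in cKO, and Ubr7, a ubiquitin ligase of chromatin, had 1.28 in WT and 1.40 in cKO. UMIs of these 3 genes were thus also counted in cells that had left the cycle.

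**Figure D2:**
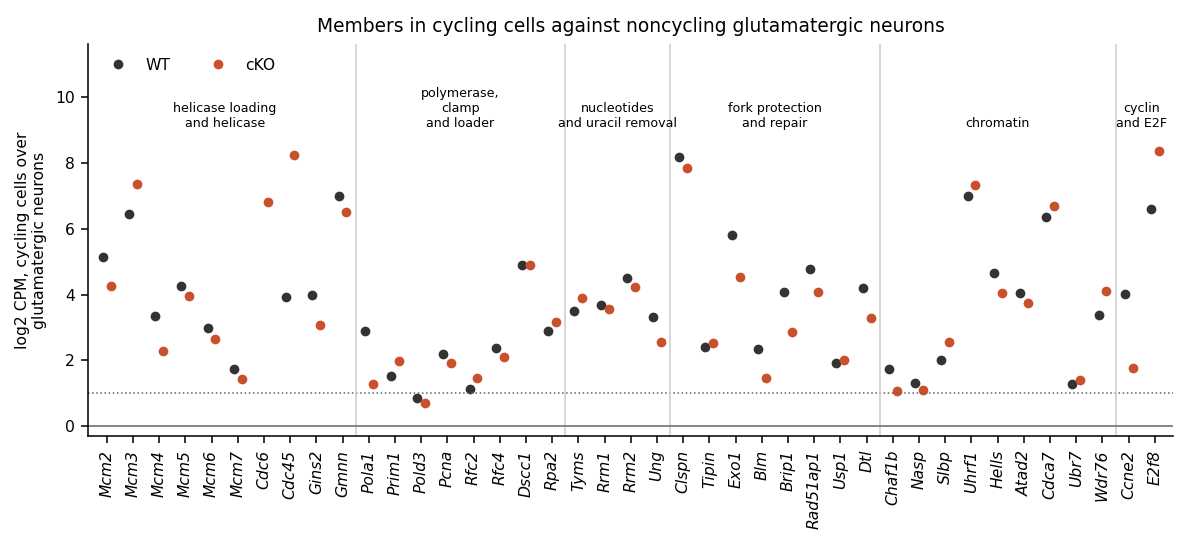
Log2 ratio of CPM in all cycling cells over noncycling glutamatergic neurons for each member, grouped by role, in WT and cKO; the dotted line marks 2-fold and Cdc6 in WT has no point because neurons held 0 UMIs. The cKO point of Cdc45 rests on 1 UMI in neurons. Every member but Pold3 lies above the line in both libraries.

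Members could also be read in cells with no mitotic UMI. After every cell was thinned to 2000 UMIs, UMIs of at least 3 members were present in 21.4% (17.5 to 25.8%) of 392 cells of the noncycling radial glia/astrocyte group in WT and in 15.7% (11.5 to 20.8%) of 254 cells in cKO (34 and 23 shallower cells left out). In noncycling glutamatergic neurons, taken as the background since they do not replicate, the share was 15.6% (14.0 to 17.4%) of 1764 cells in WT and 15.3% (13.7 to 16.9%) of 1979 cells in cKO. Median depths before thinning were 6176.5 and 7399 UMIs in the radial glia/astrocyte cells and 7484 and 7883 in the neurons. The relation to the neurons changed with depth. At 2000 UMIs the radial glia/astrocyte share was higher than that of neurons in WT, with intervals barely apart (from 17.47% against up to 17.43%), and the intervals overlapped in cKO. At 1000 UMIs it was 5.24% in WT and 5.22% in cKO beside 3.25% and 3.40% in neurons, at 4000 UMIs 53.1% and 42.7% beside 47.7% and 44.5%, and without thinning 68.1% and 70.0% beside 79.2% and 79.8%, where neurons were higher in both libraries. In WT the intervals overlapped at 1000 UMIs (3.31 to 7.82% beside 2.49 to 4.16%) and at 4000 UMIs (47.8 to 58.4% beside 45.2 to 50.1%). Thinning drew UMIs at random, and the intervals leave out the error of that draw. The narrow gap in WT at 2000 UMIs therefore does not separate radial glia/astrocyte cells from neurons. In cycling radial glia/astrocyte cells the thinned share was 88.3% (82.8 to 92.5%) of 188 cells in WT and 82.9% (75.6 to 88.7%) of 140 cells in cKO.

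Cycling cells were then divided by 9 late mitotic genes into early cells with 0 of their UMIs and late cells with at least 3. The order of early and late depended on the limit for a cycling cell. At the limit of 3 UMIs from 2 genes, 111 WT and 63 cKO early cells held 3536 and 2568 CPM of the members, and 26 of 41 members were higher in late cells in both libraries (34.4% of all genes) while 8 were lower (33.8%). At 6 UMIs from 3 genes, 32 WT and 21 cKO early cells remained and held 7325 and 5604 CPM, late cells held 4341 and 3761 CPM, 30 members were lower in late cells (26.1%) and 2, Usp1 and E2f8, were higher (35.3%), 0 of them at least 2-fold in both libraries (10.1%). Of the lower members, 11 were at least 2-fold lower in late cells in both libraries (3.46% of all genes). They were Mcm2, Mcm3, Mcm4, Mcm5, Mcm6 and Cdc6 of the helicase genes, and Ccne2, Ung, Hells, Dscc1 and Chaf1b.

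Ung, which removes uracil from DNA, was the 1 member at least 2-fold lower in late cells at the wider limit as well (7.4% of all genes), where Rrm1, Rrm2 and E2f8 were at least 2-fold higher (5.03%). At the stricter limit it gave 244 CPM early and 29.8 CPM late in WT, and 179 and 22.4 CPM in cKO, log2 ratios of -3.03 in WT and -3.0 in cKO. Mcm6 gave 357 and 162 CPM in WT and 316 and 117 CPM in cKO. Both genes were thus lower in late cells of each library. Rrm2, the small subunit of ribonucleotide reductase, was nearly level (-0.17 in WT and -0.09 in cKO). E2f8, a repressor of E2F targets, had log2 ratios of 0.16 in WT and 0.64 in cKO. Its early cells held only 9 UMIs in WT and 8 in cKO, so its direction at this limit is uncertain.

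**Figure D3:**
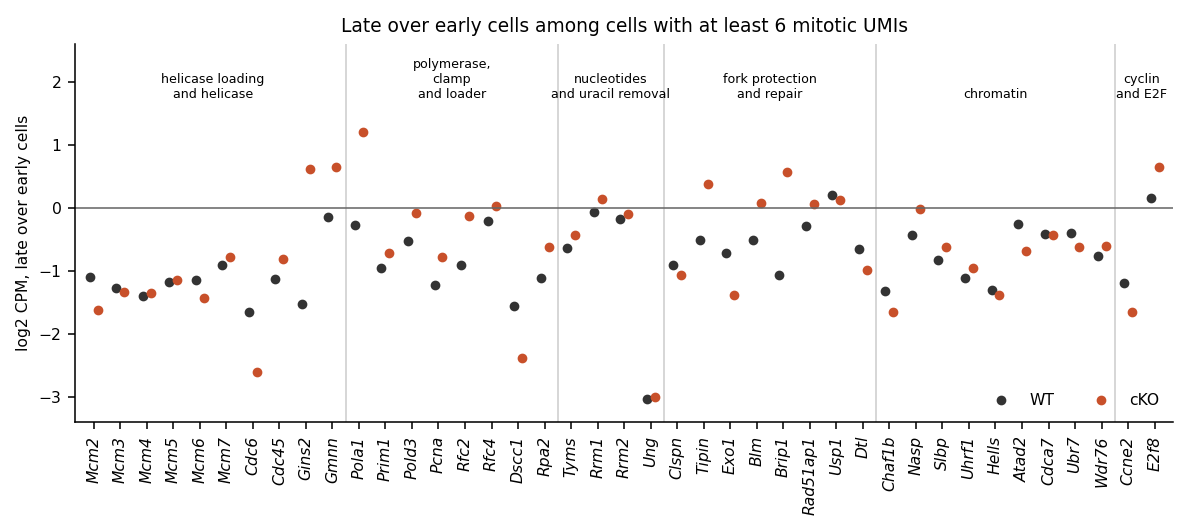
Log2 ratio of CPM in late over early cycling cells for each member in WT and cKO, among cells with at least 6 mitotic UMIs from 3 genes; early cells hold 0 and late cells at least 3 UMIs of the late mitotic genes. Most points lie below 0 and Ung lies lowest, at -3.03 in WT and -3.0 in cKO.

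Cycling cells of the cKO library held less of the summed members than those of WT, with 3535 against 4325 CPM (log2 ratio -0.29, interval -0.32 to -0.27). Of the 41 members, 30 had a log2 ratio below 0 (56.3% of all genes) and 11 above. The members' median was -0.26 and that of all 13375 genes tested -0.10. At least 2-fold lower in cKO were 5 members (Pola1, Cdc45, Hells, Tyms and Prim1), or 12.2% of them beside 13.8% of all genes, and 0 were at least 2-fold higher beside 3.16%. The share past 2-fold was therefore near that of all genes. The summed mitotic genes, which also set the cycling group, were 3972 CPM in WT and 3879 CPM in cKO. Of the 17, 9 had log2 ratios below 0 (56.3% of all genes) and 8 above, between -0.53 (Bub1) and 0.60 (Cdca3). Mki67 lay at 264 and 265 CPM.

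The 10 genes of helicase loading and the helicase summed to 1016 CPM in WT and 737 CPM in cKO (log2 ratio -0.46, interval -0.52 to -0.41) in cycling cells. All but Cdc6 lay below the median of all genes, and the ratio of Cdc6 was -0.02 with an interval of -0.39 to 0.36, which includes 0. Of the ring subunits, Mcm3 had 145 CPM in WT and 92.2 CPM in cKO (log2 ratio -0.66, interval -0.81 to -0.51). Mcm2 gave 115 CPM in WT and 82.1 CPM in cKO (log2 ratio -0.49), Mcm5 107 CPM in WT and 76.3 CPM in cKO (-0.49) and Mcm6 182 CPM in WT and 131 CPM in cKO (-0.48). The 6 ring subunits make 1 complex in equal numbers, and their ratios spanned -0.66 to -0.26. The smaller differences were those of Mcm4 (84.6 CPM in WT and 67.2 CPM in cKO, log2 ratio -0.33) and Mcm7 (151 CPM in WT and 126 CPM in cKO, -0.26). Geminin, the inhibitor of loading, had 126 CPM in WT and 104 CPM in cKO (-0.28). The activator of the ring, Cdc45, had 335 UMIs in WT and 90 in cKO (log2 ratio -1.33, interval -1.68 to -0.99) and was the second lowest member.

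The polymerase, clamp and loader genes were split. Pola1, the catalytic subunit of the polymerase alpha-primase complex that starts each strand, was the lowest of all members with 243 UMIs in WT and 45 in cKO (log2 ratio -1.87, interval -2.36 to -1.41). It is X-linked, and the libraries differ in sex, whose part in this ratio was not tested. Prim1, the primase subunit of the same complex, had 80.1 CPM in WT and 38.9 CPM in cKO (log2 ratio -1.04, interval -1.26 to -0.82). The clamp loader subunits among the members, Rfc2 and Rfc4, were lower in cKO as well. Rfc2 gave 112 CPM in WT and 56.4 CPM in cKO (log2 ratio -1.0, interval -1.18 to -0.81), just short of 2-fold, and Rfc4 126 CPM in WT and 68.2 CPM in cKO (log2 ratio -0.89, interval -1.06 to -0.72). The clamp itself, Pcna, went the other way with 146 CPM in WT and 182 CPM in cKO (log2 ratio 0.32, interval 0.20 to 0.43). Rpa2, a subunit of the protein that coats single-stranded DNA, had 129.7 CPM in WT and 146 CPM in cKO (log2 ratio 0.17, interval 0.04 to 0.30), and Pold3 had 51.2 CPM in WT and 47.6 CPM in cKO (log2 ratio -0.10, interval -0.33 to 0.12), which includes 0. Over the 8 genes the sum was 700.1 CPM in WT and 564 CPM in cKO (log2 ratio -0.31, interval -0.37 to -0.25).

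Among the genes that supply and clean nucleotides, Tyms, which makes thymidylate, had 153 CPM in WT and 68.7 CPM in cKO (log2 ratio -1.16, interval -1.32 to -1.0). Rrm2 had 343 CPM in WT and 207 CPM in cKO (log2 ratio -0.73, interval -0.83 to -0.63), whereas Rrm1, the large subunit of the same reductase, had 178 CPM in WT and 195 CPM in cKO (log2 ratio 0.13, interval 0.02 to 0.24). The 2 subunits thus differed by sign. Ung had 52.9 CPM in WT and 44.6 CPM in cKO (log2 ratio -0.25, interval -0.47 to -0.02).

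The 8 genes of fork protection and repair summed to 660.0 CPM in WT and 731 CPM in cKO (log2 ratio 0.15, interval 0.09 to 0.20). Of their ratios 5 were above 0 and 3 below (56.3% of all genes), with a median of 0.08 beside -0.10 over all genes. The higher sum in cKO rested on Usp1 and Rad51ap1. Without them, a sum formed after their values were seen, it was 447 CPM in WT and 426 CPM in cKO (log2 ratio -0.07, interval -0.14 to 0.00), which includes 0. Usp1, a deubiquitinase that acts on ubiquitinated Pcna and FANCD2, had 154 CPM in WT and 219 CPM in cKO (log2 ratio 0.51, interval 0.40 to 0.62), and Rad51ap1, a factor of homologous recombination, had 59.1 CPM in WT and 86.0 CPM in cKO (log2 ratio 0.54, interval 0.36 to 0.72). These were among the 4 highest members, with Pcna and with E2f8, which had 204 UMIs in WT and 197 in cKO (log2 ratio 0.51, interval 0.22 to 0.80). Tipin, of the fork protection complex, had 201 CPM in WT and 203 CPM in cKO (log2 ratio 0.02, interval -0.09 to 0.13), and the helicase Blm had 37.9 CPM in WT and 41.8 CPM in cKO (log2 ratio 0.14, interval -0.10 to 0.39). Both intervals include 0. Clspn (70.8 CPM in WT and 59.1 CPM in cKO, log2 ratio -0.26) and Dtl, which directs the destruction of Cdt1 (98.7 CPM in WT and 84.1 CPM in cKO, log2 ratio -0.23), were lower in cKO.

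Of the chromatin members, Hells, a remodeler needed for DNA methylation, was the third lowest with 602 UMIs in WT and 169 in cKO (log2 ratio -1.27, interval -1.52 to -1.02). Its partner Cdca7 differed little, with 126 CPM in WT and 112 CPM in cKO (log2 ratio -0.16, interval -0.31 to -0.02). Nasp had 447 CPM in WT and 322 CPM in cKO (log2 ratio -0.47, interval -0.55 to -0.39), Uhrf1 117 CPM in WT and 90.8 CPM in cKO (log2 ratio -0.37, interval -0.52 to -0.21) and Atad2, a bromodomain ATPase, 65.6 CPM in WT and 37.7 CPM in cKO (log2 ratio -0.80, interval -1.03 to -0.57). Slbp, which binds the stem-loop of histone mRNA, had 225 CPM in WT and 207 CPM in cKO (log2 ratio -0.12, interval -0.23 to -0.02). Chaf1b, a subunit of a histone chaperone that acts behind the fork, was higher in cKO with 62.5 CPM in WT and 71.6 CPM in cKO (log2 ratio 0.20, interval 0.01 to 0.38). Ubr7 had 40.0 CPM in WT and 46.1 CPM in cKO (log2 ratio 0.21, interval -0.03 to 0.44), which includes 0. The remaining members, each with fewer than 200 UMIs in cKO (Gins2, Dscc1, Exo1, Brip1, Wdr76 and Ccne2), had log2 ratios between -0.87 and 0.29.

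**Figure D4:**
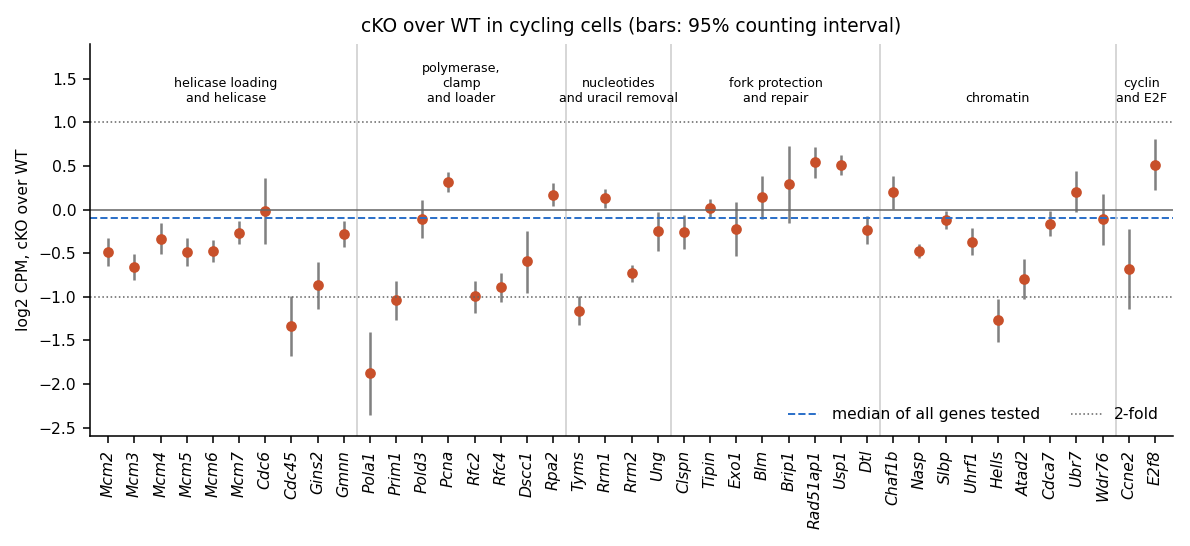
Log2 ratio of CPM in cKO over WT in cycling cells for each member by role, with bars for the 95% counting interval, a dashed line at the median of all genes tested and dotted lines at 2-fold. Of the 10 helicase genes all but Cdc6 lie below the dashed line, Cdc45 lowest at -1.33, and Pola1 lies lowest at -1.87, while Pcna, Rad51ap1, Usp1 and E2f8 lie above 0 with their intervals.

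Lineages made up different shares of the cycling cells, so the ratios were read within each. The sum of members had a log2 ratio of -0.20, interval -0.24 to -0.16 in radial glia/astrocyte cells (190 WT and 140 cKO), -0.37, interval -0.42 to -0.33 in Dlx/GABAergic cells (163 and 97), -0.31, interval -0.39 to -0.22 in Eomes cells (36 and 32) and -0.04, interval -0.13 to 0.04 in OPCs (79 and 23), where it includes 0. At least 2-fold lower in cKO were 5 of 41 members in radial glia/astrocyte cells (9.25% of all genes), 7 of 41 in Dlx/GABAergic cells (11.3%), 5 of 38 in Eomes cells (9.97%) and 4 of 39 in OPCs (12.3%). At least 2-fold higher were 0 (5.47%), 0 (6.2%), 1 (7.38%) and 0 (5.09%). The sum over fork protection and repair genes had ratios of 0.20, 0.09, 0.15 and 0.23 in the same order, with intervals that include 0 in Dlx/GABAergic and Eomes cells, and without Usp1 and Rad51ap1 0.06, -0.16, -0.18 and -0.02. The sum over helicase genes was lower in cKO in each lineage, its interval below 0 (-0.40, -0.34, -0.40 and -0.24). Of the 10 genes, 10, 9, 7 and 7 had ratios below the median of all genes in the lineage (-7.68e-05, 0.01, 0.01 and -0.05).

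The sum over nucleotide genes ranged between lineages from a log2 ratio of -0.80 in Dlx/GABAergic cells to 0.04 in OPCs. Rrm2 gave 672 CPM in WT and 295 CPM in cKO (log2 ratio -1.19, interval -1.37 to -1.01) in Dlx/GABAergic cells and 378 CPM in WT and 372 CPM in cKO (log2 ratio -0.02, interval -0.33 to 0.28) in OPCs. Pola1 had 69 UMIs in WT and 6 in cKO (log2 ratio -3.25, interval -4.75 to -2.06) in Dlx/GABAergic cells and 64 UMIs in WT and 21 in cKO (log2 ratio -1.27, interval -2.05 to -0.54) in radial glia/astrocyte cells. In Eomes cells Hells gave 49 UMIs in WT and 15 in cKO (log2 ratio -2.14, interval -3.09 to -1.29), and the 1 member at least 2-fold higher there was E2f8 with 9 UMIs in WT and 28 in cKO (log2 ratio 1.2, interval 0.08 to 2.47).

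The ratios were also read in 5 noncycling groups, which with the pooled and the 4 separate cycling groups made 10, the pooled one sharing its cells with the other cycling groups. Of the 17 members with at least 20 UMIs in all 10, 6 were below 0 in every group (Mcm6, Tyms, Prim1, Rfc2, Rfc4 and Nasp), beside 18.1% of all 5327 genes so tested, and 3 were above 0 in every group (Pcna, Usp1 and Ubr7), beside 19.7%. All groups come from the same 2 libraries. Among the 17 members, Tyms was at least 2-fold lower in 9 of 10 groups, Rfc2 in 7 and Prim1 in 6, neurons included. Among members tested in fewer groups, Cdc45 was so in 5 of 6, Pola1 in 5 of 7 and Hells in 5 of 8. How many of all genes were so often lower was not counted. In noncycling glutamatergic neurons Prim1 gave 27.5 CPM in WT and 9.74 CPM in cKO (log2 ratio -1.50, interval -1.75 to -1.25), Rfc2 50.7 CPM in WT and 20.4 CPM in cKO (log2 ratio -1.31, interval -1.49 to -1.14) and Tyms 13.6 CPM in WT and 4.59 CPM in cKO (log2 ratio -1.57, interval -1.94 to -1.21). The differences of these 3 genes were thus as large in neurons as in cycling cells. Cdc45 had 42 UMIs in WT and 1 in cKO (log2 ratio -5.65, interval -10.98 to -3.09) in those neurons, and it overlaps Ufd1 on the other strand, whose part in the count was not tested.

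**Figure D5:**
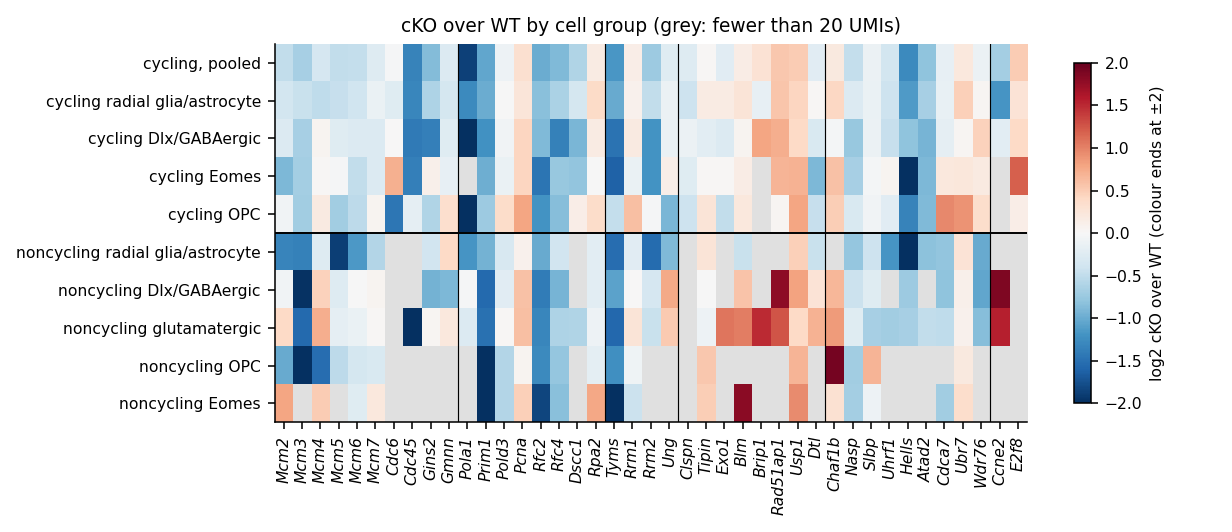
Log2 ratio of cKO over WT for each member (columns, by role) in 10 cell groups (rows), blue where lower and red where higher in cKO, with colours ending at ±2 and grey where fewer than 20 UMIs were counted. The columns of Tyms, Prim1, Rfc2 and Rfc4 are blue in every row and those of Pcna, Usp1 and Ubr7 red in every row.

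In noncycling radial glia/astrocyte cells, 10 members had fewer than 20 UMIs. Of the 31 tested, 11 were at least 2-fold lower in cKO (12.5% of all genes) and 0 at least 2-fold higher (3.99%). Their median log2 ratio was -0.78 and that of all genes -0.09. The 11 were Mcm2, Mcm3, Mcm5, Mcm6, Tyms, Rrm2, Uhrf1, Hells, Rfc2, Wdr76 and Pola1. Mcm6 had 140 UMIs in WT and 48 in cKO (log2 ratio -1.14, interval -1.65 to -0.66), Mcm3 88 UMIs in WT and 26 in cKO (log2 ratio -1.36, interval -2.05 to -0.71) and Hells 34 UMIs in WT and 5 in cKO (log2 ratio -2.36, interval -4.08 to -1.0). The count rests on few UMIs and was 3 of the 15 members with at least 100 UMIs (6.16% of all genes). The median depth of these cells was 6176.5 UMIs in WT and 7399 in cKO. With the groups set on cells thinned to 2000 UMIs the summed log2 ratio was -0.50, and -0.46, interval -0.55 to -0.37 without thinning. The 8 genes of fork protection and repair summed to 156 CPM in WT and 175 CPM in cKO (log2 ratio 0.16, interval -0.05 to 0.37) there, an interval that includes 0.

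In noncycling glutamatergic neurons 5 of 38 members were at least 2-fold lower (18.6% of all genes) and 5 at least 2-fold higher (5.32%). The 5 higher members were Rad51ap1, Ccne2, Exo1, Blm and Brip1, of which 4 belong to fork protection and repair. Blm gave 121 UMIs in WT and 292 in cKO (log2 ratio 1.02, interval 0.71 to 1.33), Rad51ap1 35 UMIs in WT and 100 in cKO (log2 ratio 1.26, interval 0.69 to 1.86) and Brip1 11 UMIs in WT and 37 in cKO (log2 ratio 1.5, interval 0.49 to 2.62). In Dlx/GABAergic cells 5 of 32 were lower (15.6%) and 2, Rad51ap1 and Ccne2, higher (5.67%), in OPCs 6 of 20 lower (12.5%, median log2 ratio -0.43) and 1 higher (6.3%), and in Eomes cells 3 of 20 lower (12.6%) and 1 higher (8.26%).

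Microglia, endothelial and mural cells lie outside the neural lineage in which Nestin-Cre mainly acts. Their noncycling and intermediate cells were pooled after the values above were seen, 190 in WT (38 microglia, 122 endothelial and 30 mural cells) and 96 in cKO (18, 56 and 22). In them the members summed to 752 CPM in WT and 496 CPM in cKO (log2 ratio -0.60, interval -0.75 to -0.45). Of the 27 members with at least 20 UMIs there, 8 were at least 2-fold lower (15.5% of all genes) and 1, Chaf1b, at least 2-fold higher (4.47%), and their median log2 ratio was -0.70 beside -0.13 over all genes. The mix of the 3 cell types differed between the libraries, and its part was not tested. Rfc2 had 100 UMIs in WT and 16 in cKO (log2 ratio -1.64, interval -2.50 to -0.87), Tyms 30 UMIs in WT and 5 in cKO (log2 ratio -1.58, interval -3.30 to -0.20) and Mcm6 168 UMIs in WT and 31 in cKO (log2 ratio -1.43, interval -2.04 to -0.87). Pcna had 56 UMIs in WT and 26 in cKO (log2 ratio -0.10, interval -0.83 to 0.59) and Usp1 74 UMIs in WT and 44 in cKO (log2 ratio 0.25, interval -0.32 to 0.81). Chaf1b had 14 UMIs in WT and 17 in cKO (log2 ratio 1.28, interval 0.18 to 2.42), and Ubr7, above 0 in the 10 groups, had 82 UMIs in WT and 28 in cKO (log2 ratio -0.55, interval -1.22 to 0.09) here.

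Replication genes that are no members were read from a list of 52. In cycling cells 10 of them were at least 2-fold lower in cKO (13.8% of all genes), 1 at least 2-fold higher (3.16%), and their median log2 ratio was -0.42 beside -0.10 over all genes. Among those with at least 50 UMIs over both libraries, the 3 lowest were Gins4, a subunit of GINS, with 51.0 CPM in WT and 14.4 CPM in cKO (log2 ratio -1.82, interval -2.18 to -1.49), the checkpoint kinase Chek1 with 19.9 CPM in WT and 8.05 CPM in cKO (log2 ratio -1.31, interval -1.81 to -0.83), and Pola2, the partner of Pola1, with 32.1 CPM in WT and 13.0 CPM in cKO (log2 ratio -1.30, interval -1.69 to -0.93). The 3 highest were Mcm9, a helicase of recombination, with 6.84 CPM in WT and 19.2 CPM in cKO (log2 ratio 1.49, interval 1.02 to 1.97), the origin recognition subunit Orc6 with 93.1 CPM in WT and 159.5 CPM in cKO (log2 ratio 0.78, interval 0.64 to 0.92), and Dbf4, the activator of the kinase that fires origins, with 111 CPM in WT and 167 CPM in cKO (log2 ratio 0.59, interval 0.46 to 0.72). Within lineages, 7 of the 51 list genes tested were at least 2-fold lower in cycling radial glia/astrocyte cells (9.25% of all genes). The counts were 15 of 48 in Dlx/GABAergic cells (11.3%), 11 of 41 in Eomes cells (9.97%) and 12 of 44 in OPCs (12.3%). At least 2-fold higher were 0 (5.47%), 2 (6.2%), 1 (7.38%) and 0 (5.09%) in the same order.

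Of 28 regulators of the passage into S phase, 1 was at least 2-fold lower in the pooled cycling cells of cKO (13.8% of all genes). In that pool 0 were at least 2-fold higher (3.16%), with a median of 0.08 beside -0.10 over all genes. The 1 was Ccnd1, a D-type cyclin of G1, with 185 CPM in WT and 85.0 CPM in cKO (log2 ratio -1.12, interval -1.27 to -0.97). Next lowest among those with at least 50 UMIs over both libraries were E2f6, a repressor of the E2F family, with 15.5 CPM in WT and 9.60 CPM in cKO (log2 ratio -0.69, interval -1.17 to -0.23) and Ccnd3 with 81.9 CPM in WT and 58.8 CPM in cKO (log2 ratio -0.48, interval -0.67 to -0.29). The highest by the same limit were Rbl2 (11.7 CPM in WT and 20.9 CPM in cKO (log2 ratio 0.84, interval 0.44 to 1.23)) and Rbl1 (28.6 CPM in WT and 44.9 CPM in cKO (log2 ratio 0.65, interval 0.39 to 0.91)), relatives of the retinoblastoma protein, and Cdkn1a (61.0 CPM in WT and 102 CPM in cKO (log2 ratio 0.74, interval 0.57 to 0.91)), the p53-induced inhibitor of cyclin-dependent kinases. Within lineages, 0 of 27 regulators tested were at least 2-fold lower in cycling radial glia/astrocyte cells (9.25% of all genes). The counts were 0 of 27 in Dlx/GABAergic cells (11.3%), 0 of 20 in Eomes cells (9.97%) and 1 of 25 in OPCs (12.3%). At least 2-fold higher were 1 (5.47%), 1 (6.2%), 4 (7.38%) and 2 (5.09%) in the same order.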

How the data were processed

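RNA of single cells from cortex at postnatal day 0 was measured on the 10x Genomics platform in 1 WT and 1 cKO library. The authors deposited raw UMI counts per gene and barcode for each library, with no normalization. Per the file headers Cell Ranger 3.0.1 wrote them, whereas the submitters' processing notes name STAR, Cell Ranger 2, Seurat and mm9 without roles. How barcodes were called as cells is not given in the sources used here. The authors' combined matrix and cluster comparisons (log fold changes and p-values of numbered clusters) were not used.

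Barcodes with at least 500 genes and at most 10% mitochondrial UMIs were kept (6766 of 10715 in WT, 6080 of 9198 in cKO). Scrublet in scanpy 1.11.5 called 165 and 0 doublets at its automatic threshold, so it had not worked in cKO, and the highest scores were removed at 0.8% per 1000 cells instead (366 and 296 cells). The kept cells hold 52904238 and 52350151 UMIs, and 8 of their barcodes occur in both libraries. Cycling and noncycling cells, stages and lineages were set by marker UMIs in single cells, without clustering. A lineage needed at least 3 UMIs of its markers. Microglia, endothelial, mural, fibroblast and ependymal cells and OPCs were assigned first, in that order, and needed at least 3 marker genes. Eomes cells came next and needed at least 2 UMIs of Eomes and fewer than 2 of Trp73 and Lhx5 together. Dlx/GABAergic, glutamatergic and radial glia/astrocyte cells came last. They needed at least 2 marker genes and 2 times the UMIs of the next of these 3 lineages.

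UMIs were summed per group and given as CPM with exact Poisson intervals. Ratios carry exact conditional binomial intervals, shares Clopper-Pearson intervals. All cover counting error only, and with 1 library per genotype no test was made. Genes with at least 20 UMIs over both libraries were compared, and 2-fold marks a difference. Counts at the 3′ end were not scaled by transcript length. Where UMIs of different genes stand side by side they are counts alone, and genes with more UMIs weigh more in sums. The calculation was tested on simulated data. Values are given singly for the 30 members with at least 200 UMIs in cycling cells of each library and for the 4 highest and 4 lowest ratios among those with at least 50 UMIs over both libraries, and for the 3 highest and 3 lowest of each list of other genes by the same limit of 50 UMIs. Cdc6 in cycling cells and members named for a single cell group were chosen after their values were seen. The members and lists were chosen with earlier results of these data known. Alternatives were other cell filters, doublet rules, cycling limits, thinning depths, scalings (TMM of edgeR 4.0.16 in R 4.3.3, for scaling alone) and UMI minimums. Transcripts alike over 400 or more bases (95% identity or above) were sought using BLAST 2.17.0.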

Additional observations from a re-analysis of the deposited data

Results flagged for a closer look

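In 4 members the ratio of cKO over WT had opposite signs in cycling cells and in noncycling glutamatergic neurons, with both counting intervals on their own side of 0. The difference between the groups was not tested. How many of all genes met the same rule was not counted, so the 4 cannot be set against a general share. Mcm4, a helicase subunit, had a log2 ratio of -0.33 in cycling cells and 0.72 in neurons. Ung, which removes uracil, had -0.25 and 0.53, and Dtl, an adaptor for the destruction of Cdt1, had -0.23 and 0.69. Ccne2, an E-type cyclin, had -0.68 and 1.55 on 16 WT and 56 cKO UMIs in neurons. In each case the neurons were the group with the higher value in cKO.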

How the results depend on the processing

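The summed ratios of cKO over WT in all cycling cells and in noncycling radial glia/astrocyte cells kept their sign under the alternatives run. So did the ratios of the 8 members recomputed (Cdc45, E2f8, Hells, Pcna, Pola1, Rad51ap1, Tyms and Usp1). Sums by role, within single cycling lineages and outside the neural lineage were not rerun. The order of early and late cycling cells turned with the cycling limit, and the order of WT and cKO in the share of noncycling cells with members turned without thinning. The 40 members higher in cycling cells than in neurons became 39 under the stricter cell filter and 35 under TMM factors, which shifted the log2 ratios of all genes by -0.22 in WT and -0.40 in cKO. The 5 members at least 2-fold lower in cycling cells of cKO ranged from 4 to 6, and the median of the members less that of all genes, -0.17, from -0.27 to -0.10. The summed log2 ratio in cycling cells, -0.29, was -0.33 without a filter on cells, -0.24 at 6 mitotic UMIs from 3 genes, -0.21 with cycling cells set by Mki67 and Top2a alone, -0.21 with groups set on thinned cells, -0.21 under TMM factors and -0.24 with the 4 lineages weighted alike. With neural progenitor lineages only, an alternative chosen after seeing the data, it was -0.23. The 26 members higher in late cycling cells (8 lower) were 2 (Usp1 and E2f8, 30 lower) at 6 UMIs from 3 genes, where 32 WT and 21 cKO early cells were left. In noncycling radial glia/astrocyte cells, results added after seeing the data, the 11 members at least 2-fold lower were 7 with at least 1000 genes and at most 5% mitochondrial UMIs (summed log2 ratio -0.35), 7 by the mean of each cell's CPM, 3 of 15 tested with at least 100 UMIs, 15 with at least 1 UMI and 16 with groups set on thinned cells. The share of these cells with at least 3 members, 21.4% in WT and 15.7% in cKO at 2000 UMIs, was 5.24% in WT and 5.22% in cKO at 1000 UMIs, 53.1% and 42.7% at 4000 UMIs, and 68.1% and 70.0% without thinning, and with at least 2 members it was 44.9% and 36.2%. Hells had -0.97 under the stricter filter and -0.99 by the mean of each cell's CPM, and Pcna 0.47 with lineages weighted alike. Beyond the lower numbers of cells or members tested, the cause was not tested. The authors' combined matrix was not run. No paired analysis was possible because each genotype has 1 library, and for the same reason no replicate could be left out. Depth limits genes with few UMIs, such as Pola1 with 45 UMIs in cycling cells of cKO.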
